A study of Mus musculus with 14 samples.

Results

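The gene list described here was chosen with earlier results of these data known, although its rule holds no measured value. It names 38 genes of DNA repair and of the response to replication stress. They were read by symbol in RNA counts for 24465 genes, and by symbol in a table of 40772 regions of H3K27ac, the acetylation of lysine 27 on histone H3 that is found at active promoters and enhancers. By role, 9 act in homologous recombination and 3 form the MRN complex. The Fanconi anaemia pathway holds 5, replication protein A (RPA) 3, and the ATR checkpoint 11. A further 4 signal double-strand breaks, 1 acts in mismatch repair, and 2 act in end joining or poly(ADP-ribose) signalling. Of the 38, 35 had enough RNA counts to be tested, and 35 had at least 1 H3K27ac region under their symbol, 72 regions in all.

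The cells were Y1, a mouse adrenocortical tumour cell line. All were starved of serum for 48 h. One group then received FGF-2 (fibroblast growth factor 2) at 10 ng/ml in 10% fetal bovine serum, and the other received 10% fetal bovine serum alone, each for 5 h. RNA was sequenced in 3 libraries per group and H3K27ac in 2 libraries per group, and 4 input libraries were the background of the authors' peak calls. Every sample is 1 cell line, and the labels do not say that libraries came from separate cultures, so p-values measure only the spread between these libraries. The RNA libraries held 6403095 to 12696426 gene-assigned reads with FGF-2 and 5625004 to 9101089 in serum alone. The H3K27ac libraries held 4243872 and 4102511 reads in regions with FGF-2 and 4542564 and 3964691 in serum alone. With 3 counts as the limit of a count of 0, the floor was 0.236 to 0.533 CPM per library, which covers counting error only. It was taken on library totals, without the scaling used for the CPM values in the text. The first principal component of the RNA held 81.1% of the variance and separated the groups. On it serum library 3 lay closer to the FGF-2 libraries than did the other serum libraries. Of the 8 adrenocortical markers, Nr5a1 stood at 71.3 ± 9.80 CPM with FGF-2 and 74.3 ± 9.34 CPM in serum alone, whereas Nr0b1 was listed at 0 in all 6 libraries and Mc2r averaged 0.124 CPM with FGF-2 and 0.126 CPM in serum alone.

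Homologous recombination repairs double-strand breaks and collapsed replication forks by copying an intact sister chromatid. Brca1 with Bard1 promotes resection of the broken ends, and Palb2 links Brca1 to Brca2, a mediator of strand exchange. The Fanconi anaemia proteins unhook DNA crosslinks, and RPA coats the exposed single strands and recruits the kinase ATR. ATR acts through Chek1 to hold back late origins and mitosis, while ATM acts through Chek2 at double-strand breaks. Many of these genes are known to be transcribed mostly in S and G2 phase, in part through promoter sites for E2F factors.

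With FGF-2, most of the 35 tested genes had lower transcript levels than in serum alone. By edgeR's quasi-likelihood test with Benjamini-Hochberg adjustment over all 10374 tested genes at 0.05, 26 fell, 1 rose (Atrip) and 8 did not pass. Among all tested genes 24.2% were called lower and 22.1% higher. The median log2 fold change (serum with FGF-2 over serum alone) was -0.87 over the 35 genes and -0.02 over all tested genes, and 32 of the 35 lay below 0. All libraries of one group lay above or below all of the other for 28 of the 35, and this held for 57.5% of all tested genes. The summed level of the 38 genes was 1026 to 1116 CPM (counts per 1e6 reads in genes, scaled by TMM) in the FGF-2 libraries and 1558 to 1850 CPM in the serum libraries. Reads of overlapping genes are uncertain because the strand setting is not given, and 10 of the 38 genes overlap another protein-coding gene: Atr, Rad54l, Fanca, Fancb, Fancd2, Fanci, Rpa1, Rad9a, Trp53bp1 and Msh6. Serum library 3 had the lowest of the 3 serum values for 18 of the 26 genes that fell. Without that library the count called lower was also 26.

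The scaling bears on the direction, since the median of all genes was -0.02 with TMM, -0.36 by library totals alone and -0.16 by upper quartiles. Over all genes, 2512 were called lower and 2295 higher with TMM. By upper quartiles these counts were 3320 and 1616, and by library totals 4675 and 1035. The median of the listed genes was -0.87 with TMM, -1.01 by upper quartiles and -1.21 by library totals. In bulk RNA, fewer cells of a type and less RNA per cell cannot be told apart.

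**Figure D1:**
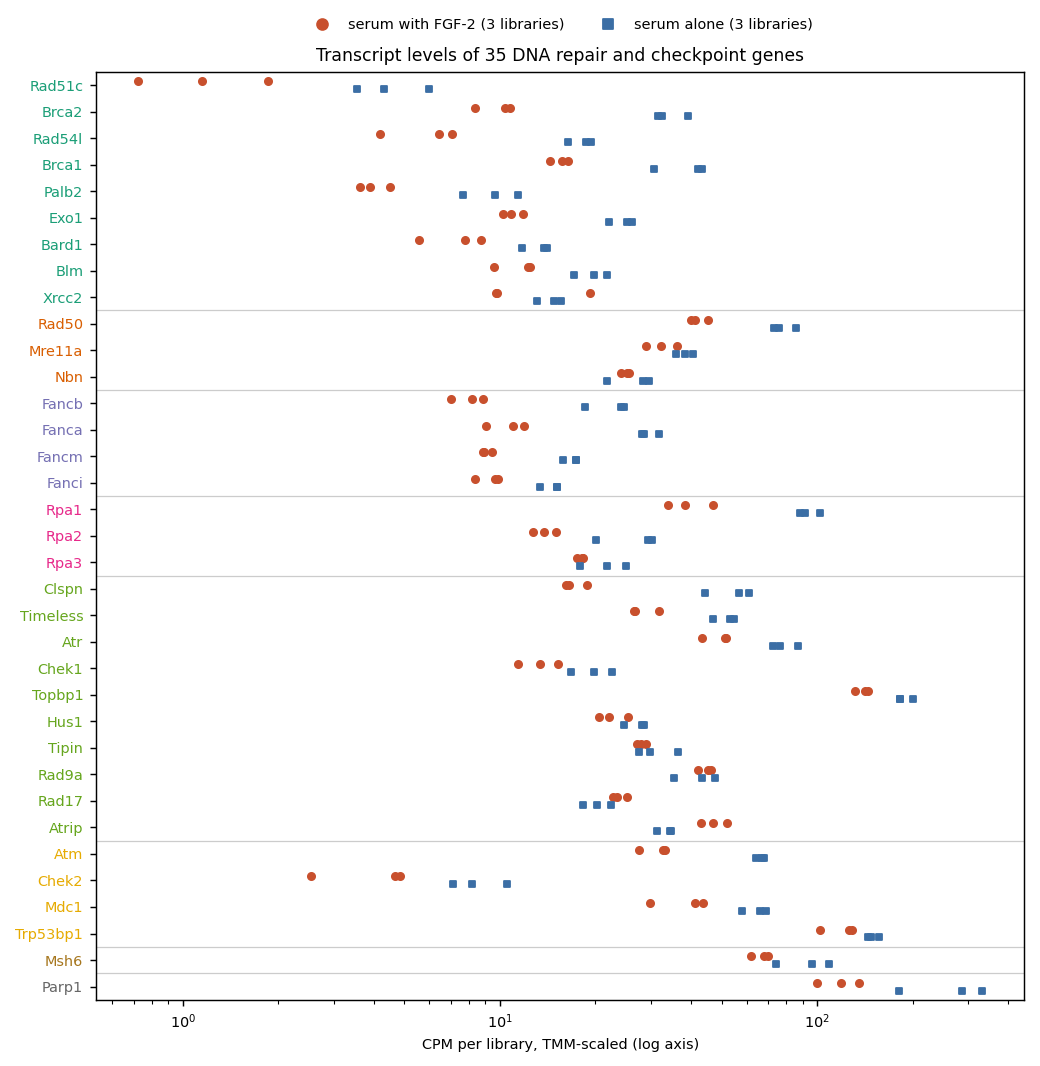
Transcript levels of the 35 tested genes in CPM on a log axis, 1 point per library, with serum with FGF-2 as circles and serum alone as squares. Gene names are coloured by role, with lines between roles, and ordered within a role by their fold change; the circles lie left of the squares without overlap for all 26 genes that fell.

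**Figure D2:**
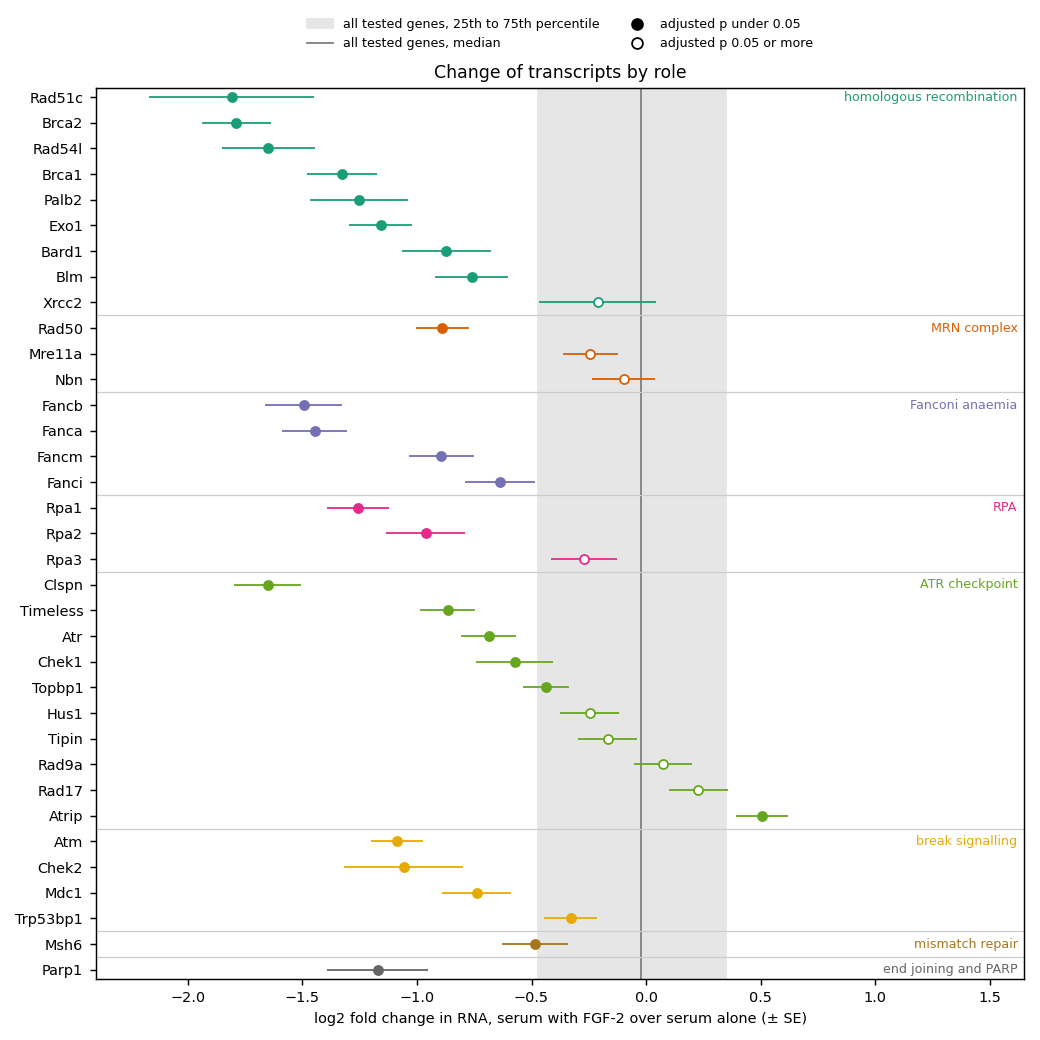
Log2 fold change in RNA (serum with FGF-2 over serum alone) of the 35 tested genes by role, with bars of 1 SE from edgeR. Filled points have an adjusted p under 0.05, the grey band spans the middle 50% of all 10374 tested genes, and 26 filled points lie left of 0 and 1, Atrip, lies right of it.

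RefSeq promoters (assembly GRCm38.p6, 250 bases before to 50 after the start) were at hand for 30 of the 38 genes. They were searched on both strands for 3 motifs known from cell cycle promoters. The E2F motif was taken as TTTCCCGC, TTTGGCGC, TTTCGCGC or TTTGCCGC, the cell cycle homology region (CHR) as TTTGAA or TTCGAA, and the NF-Y box as CCAAT. An E2F motif was present in 8 of the 30 promoters (26.7%), against 2.26% of all 32851 RefSeq promoters 4.11% of the promoters of tested genes and 6.94% of those of 72 other repair genes. These 8 were Chek2, Brca2, Bard1, Rad51c, Clspn, Topbp1, Mdc1 and Msh6, and the RNA of each fell. Of the genes with a promoter, 24 fell in RNA, and 8 of these 24 (33.3%) held an E2F motif. A further 5 were tested and did not fall, and 0 of them held it. Most genes with a promoter fell, so the fall of all 8 says little about the motif, and its part was not tested. A CCAAT box was present in 18 (60%) of the promoters, against 37.4% of all promoters, 38.3% of those of tested genes and 52.8% of those of other repair genes. A CHR was present in 3 (10%), against 19.2% and 13.5%. The median GC content was 59.7% over the 30 promoters, 52.7% over all and 61% over those of tested genes. A match is a run of letters, not a shown binding site. The promoter listed for Timeless starts 6003 bases from the start used in the region table, so its window may not be the one in use.

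The promoters below are those of the gene with the largest RNA fold change in each of 6 roles, among genes with a listed promoter and an H3K27ac region over the start. Each is given 5′ to 3′ on the gene's strand, with the start after the first 250 bases, and capitals mark the motifs found. The Rad51c promoter (chr11:87404457-87404756, minus strand) holds 1 E2F motif beginning at base 12, counting the start as base 1. The Clspn promoter (chr4:126556730-126557029, plus strand) holds an E2F motif beginning at base 22, on the opposite strand, and 2 CCAAT boxes at 69 and 21 bases before the start, written here as ATTGG.
Rad51c: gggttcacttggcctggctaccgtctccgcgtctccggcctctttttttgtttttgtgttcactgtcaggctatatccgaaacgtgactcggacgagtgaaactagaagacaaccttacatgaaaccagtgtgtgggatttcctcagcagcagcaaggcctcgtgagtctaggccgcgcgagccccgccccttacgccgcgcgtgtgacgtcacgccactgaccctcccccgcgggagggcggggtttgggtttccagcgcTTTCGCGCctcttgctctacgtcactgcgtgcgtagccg
Clspn: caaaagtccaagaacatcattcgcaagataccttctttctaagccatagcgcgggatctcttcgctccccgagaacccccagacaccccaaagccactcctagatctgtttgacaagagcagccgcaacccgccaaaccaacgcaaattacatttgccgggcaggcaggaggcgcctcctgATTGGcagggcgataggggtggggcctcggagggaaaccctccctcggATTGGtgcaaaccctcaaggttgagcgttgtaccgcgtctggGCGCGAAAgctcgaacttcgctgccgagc
The Rpa2 promoter (chr4:132768110-132768409, plus strand) holds 3 CCAAT boxes, all on the opposite strand, while those of Atm (chr9:53536622-53536921, minus strand) and Fancm (chr12:65075353-65075652, plus strand) hold 1 each. The Parp1 promoter (chr1:180568641-180568940, plus strand) holds none of the 3 motifs although its RNA fell.
Rpa2: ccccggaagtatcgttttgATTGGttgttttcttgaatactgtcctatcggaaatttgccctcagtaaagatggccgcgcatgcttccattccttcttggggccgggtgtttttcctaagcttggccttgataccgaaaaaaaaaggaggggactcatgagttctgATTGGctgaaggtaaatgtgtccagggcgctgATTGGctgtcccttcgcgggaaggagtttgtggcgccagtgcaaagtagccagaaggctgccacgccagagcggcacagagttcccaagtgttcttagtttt
Atm: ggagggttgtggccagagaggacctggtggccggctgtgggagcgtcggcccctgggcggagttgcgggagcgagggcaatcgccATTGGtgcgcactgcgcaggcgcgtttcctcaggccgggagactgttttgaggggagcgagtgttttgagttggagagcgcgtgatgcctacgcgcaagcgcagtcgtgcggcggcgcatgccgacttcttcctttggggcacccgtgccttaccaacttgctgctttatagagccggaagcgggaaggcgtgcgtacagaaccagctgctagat
Fancm: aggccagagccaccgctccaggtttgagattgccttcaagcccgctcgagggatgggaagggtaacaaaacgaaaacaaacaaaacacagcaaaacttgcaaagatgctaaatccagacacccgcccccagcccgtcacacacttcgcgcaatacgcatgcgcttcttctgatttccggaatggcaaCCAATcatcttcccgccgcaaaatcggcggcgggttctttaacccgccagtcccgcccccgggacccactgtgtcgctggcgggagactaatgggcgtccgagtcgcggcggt
Parp1: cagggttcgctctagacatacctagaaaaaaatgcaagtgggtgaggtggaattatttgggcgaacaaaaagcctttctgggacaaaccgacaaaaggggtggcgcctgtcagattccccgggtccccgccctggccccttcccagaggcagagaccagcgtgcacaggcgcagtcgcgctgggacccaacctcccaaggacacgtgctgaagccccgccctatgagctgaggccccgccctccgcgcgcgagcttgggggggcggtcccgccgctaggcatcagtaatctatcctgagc

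Homologous recombination held the 2 largest log2 decreases of the list, at Rad51c and Brca2. Of its 9 genes 8 fell, with a median log2 fold change of -1.25. Brca2 stood at 10.7, 10.4 and 8.33 CPM with FGF-2, against 31.5, 39.1 and 32.5 CPM in serum alone. Its log2 fold change was -1.79 ± 0.15 (SE, n = 3 per group, edgeR adjusted p = 2.49e-05). Rad51c, a mediator of recombination, was at 1.85, 1.15 and 0.724 CPM with FGF-2, against 3.54, 5.96 and 4.32 CPM in serum alone. Its change of -1.81 ± 0.36 (edgeR adjusted p = 0.00274) rests on few reads, 19, 13 and 4 with FGF-2 and 37, 56 and 26 in serum alone. Rad54l, the motor protein that drives strand invasion, was at 4.19, 6.44 and 7.06 CPM with FGF-2, against 19.3, 18.7 and 16.4 CPM in serum alone. All 3 genes were lower in every FGF-2 library than in any serum library.

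Of the listed homologous recombination genes, Brca1, Palb2, Exo1, Bard1 and Blm also fell. Brca1 was at 14.4, 16.4 and 15.8 CPM with FGF-2, against 43.4, 42.1 and 30.7 CPM in serum alone, a log2 fold change of -1.33 ± 0.15 (edgeR adjusted p = 0.000135). Palb2 was at 3.90, 4.50 and 3.62 CPM with FGF-2, against 11.4, 9.68 and 7.64 CPM in serum alone, and changed by -1.25 ± 0.21 (edgeR adjusted p = 0.00118). Exo1, a resection exonuclease that also acts in mismatch repair, was at 10.2, 11.8 and 10.9 CPM with FGF-2, against 26.1, 25.2 and 22.1 CPM in serum alone. Bard1, the partner of Brca1, and Blm, the helicase that dissolves crossed strands, fell by 0.87 and 0.76 on the log2 scale. For each of these genes the groups did not overlap.

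Xrcc2, another mediator of recombination, was the member of this role that did not pass. It stood at 9.75, 9.80 and 19.2 CPM with FGF-2, against 15.6, 13.1 and 14.8 CPM in serum alone, so FGF-2 library 3 lay above all others. Its log2 fold change was -0.21 (edgeR adjusted p = 0.522), and -0.56 (edgeR adjusted p = 0.0210) without that library.

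In the MRN complex, which senses and trims broken ends, 1 of 3 genes fell. Rad50, the subunit that tethers the ends, was at 45.4, 41.2 and 40.0 CPM with FGF-2, against 73.0, 86.1 and 75.7 CPM in serum alone (log2 fold change -0.89 ± 0.11, edgeR adjusted p = 0.000237). Mre11a, the nuclease, was at 36.1, 32.1 and 28.8 CPM with FGF-2, against 40.7, 38.4 and 36.0 CPM in serum alone. Nbn, the subunit that recruits ATM, was at 25.5, 24.1 and 25.2 CPM with FGF-2, against 29.5, 28.2 and 21.7 CPM in serum alone. The groups overlapped for Mre11a and Nbn, and their edgeR adjusted p was 0.117 and 0.579.

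All 4 tested Fanconi anaemia genes fell, with a median log2 fold change of -1.17. Fancb and Fanca, subunits of the core ubiquitin ligase complex, changed by -1.49 ± 0.17 and -1.44 ± 0.14. Fancb stood at 7.02, 8.82 and 8.15 CPM with FGF-2, against 24.6, 24.1 and 18.6 CPM in serum alone (edgeR adjusted p = 0.000121). Fanca stood at 11.0, 11.9 and 9.05 CPM with FGF-2, against 31.6, 28.4 and 28.1 CPM in serum alone (edgeR adjusted p = 5.99e-05). Fancm, the translocase that brings the core complex to DNA, and Fanci, which is ubiquitinated together with Fancd2, fell by 0.89 and 0.64 on the log2 scale. Fancd2 had 1 read over the 6 libraries, in serum library 1, and was not tested.

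Of the 3 RPA subunits, the large subunit Rpa1 and the middle subunit Rpa2 fell. Rpa1 was at 33.9, 38.3 and 46.9 CPM with FGF-2, against 102, 91.7 and 88.3 CPM in serum alone (log2 fold change -1.26 ± 0.14, edgeR adjusted p = 9.65e-05). Rpa2 averaged 13.8 ± 1.18 CPM with FGF-2 and 26.6 ± 5.62 CPM in serum alone (SD, n = 3 each) and changed by -0.96. Rpa3, the small subunit, averaged 18 ± 0.35 CPM with FGF-2 and 21.6 ± 3.52 CPM in serum alone, and its groups overlapped (log2 fold change -0.27, edgeR adjusted p = 0.15).

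The ATR checkpoint was mixed: 5 of 10 tested genes fell, 1 rose and 4 did not pass, with a median log2 fold change of -0.34. Clspn encodes claspin, the adaptor that brings Chek1 to ATR. It was at 16.5, 18.9 and 16.1 CPM with FGF-2, against 61.0, 56.6 and 44.3 CPM in serum alone, a log2 fold change of -1.65 ± 0.14 (edgeR adjusted p = 3.21e-05). Timeless, of the fork protection complex, fell by 0.87 and the kinase Atr by 0.69 on the log2 scale. Chek1 and Topbp1, the activator of ATR, fell by 0.57 and 0.44. Chek1 lost its call without FGF-2 library 1 (-0.47, edgeR adjusted p = 0.0761) and without serum library 1 (-0.46, edgeR adjusted p = 0.0791).

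Atrip, the partner that carries ATR to RPA, was the only listed gene that rose. It was at 46.9, 52.2 and 42.9 CPM with FGF-2, against 34.4, 34.6 and 31.2 CPM in serum alone, a log2 fold change of 0.50 ± 0.11 (edgeR adjusted p = 0.00541). Its partner Atr, which fell, was at 51.8, 51.1 and 43.3 CPM with FGF-2, against 76.3, 87.3 and 72.4 CPM in serum alone. The groups overlapped for neither gene. With library totals only, the change of Atrip was 0.16 and did not pass (edgeR adjusted p = 0.309). Atrip lies within a readthrough locus with its neighbour Trex1, so its reads may be shared; Trex1 was at 12.7 ± 0.93 CPM with FGF-2 and 14.4 ± 1.40 CPM in serum alone and did not pass.

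The listed genes of the 9-1-1 clamp and its loading did not pass. Rad9a, of that clamp, was at 42.1, 46.4 and 45.3 CPM with FGF-2, against 47.5, 43.4 and 35.5 CPM in serum alone, and its fold change of 0.07 turned negative under some settings. Hus1, of the same clamp, and Rad17, of its loader, had log2 fold changes of -0.25 and 0.23. Tipin, the partner of Timeless, was at 27, 27.9 and 29 CPM with FGF-2, against 36.4, 29.8 and 27.4 CPM in serum alone. Of these 4 genes only Rad17 had groups that did not overlap. Wee1, which restrains entry into mitosis, had 0, 0 and 1 reads with FGF-2, against 2 reads in each serum library, and was not tested.

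All 4 genes of break signalling fell. Atm was at 32.8, 33.1 and 27.5 CPM with FGF-2, against 67.1, 68.1 and 64.1 CPM in serum alone (log2 fold change -1.09 ± 0.11, edgeR adjusted p = 7.74e-05). Chek2, the kinase that ATM activates, was at 4.68, 4.85 and 2.53 CPM with FGF-2, against 10.5, 8.19 and 7.14 CPM in serum alone. Its change was -1.06 ± 0.26 (edgeR adjusted p = 0.00811). Mdc1, the scaffold that reads phosphorylated histone H2AX, fell by 0.74 on the log2 scale. Trp53bp1, which shields ends from resection, had the smallest change called, -0.33 (edgeR adjusted p = 0.0389), and it lost its call without any 1 of 5 libraries, all but FGF-2 library 2.

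Msh6, a sensor of mismatched bases, was the listed mismatch repair gene. It was at 69.9, 68.0 and 62.1 CPM with FGF-2, against 109, 96.6 and 74.0 CPM in serum alone (log2 fold change -0.49 ± 0.14, edgeR adjusted p = 0.0191). Its call was lost without FGF-2 library 3, serum library 1 or serum library 2 (edgeR adjusted p = 0.0513, 0.0813 and 0.0617). Parp1, which marks strand breaks with poly(ADP-ribose), was at 136, 119 and 99.6 CPM with FGF-2, against 286, 332 and 181 CPM in serum alone. Its change was -1.17 ± 0.22 (edgeR adjusted p = 0.00317). Xrcc5, which encodes the Ku80 subunit of end joining, had 0 reads in all 6 libraries.

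Set side by side, 8 of 9 homologous recombination genes, 4 of 4 Fanconi genes, 1 of 1 mismatch repair gene and 5 of 10 ATR checkpoint genes fell. The difference between roles was not tested. The listed genes hold part of each pathway, and 77 of 91 other repair genes, in lists of their own, were tested. Of these 39 fell and 12 rose, with a median log2 fold change of -0.39.

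Other homologous recombination genes fell in 9 of 15 cases and 1 rose. Brip1, the Brca1-associated helicase, averaged 3.26 ± 0.94 CPM with FGF-2 and 13.3 ± 2.34 CPM in serum alone, a log2 fold change of -2.0. Rad54b, a relative of Rad54l, changed by -1.84. Slx4, a scaffold for nucleases that also acts in the Fanconi pathway, rose by 0.45. Of the other Fanconi genes 4 of 7 fell, led by Fancg at -1.16 and Fan1 at -0.73, whereas Ube2t and Wdr48 rose by 0.73 and 0.55. Ube2t is the ubiquitin-conjugating enzyme of the pathway, and Wdr48 the cofactor of its deubiquitinase.

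Of other mismatch repair genes 4 were examined (Msh3, Mlh3, Pms1 and Pms2), and all 4 fell. Pms1 averaged 2.34 ± 0.52 CPM with FGF-2 and 5.17 ± 0.76 CPM in serum alone, a log2 fold change of -1.17, and Mlh3 changed by -0.81. Of the other ATR checkpoint genes 7 of 9 fell and 0 rose. Smarcal1, a fork remodelling enzyme, changed by -0.88 and Rfc3, of the clamp loader, by -0.87. Of other break signalling genes 3 of 7 fell and 1 rose. H2afx, the histone variant phosphorylated at breaks, changed by -0.62, Mad2l2 by -0.50 and the acetyltransferase Kat5 by 0.32.

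In end joining 2 of 7 genes fell and 1 rose. Prkdc, the DNA-dependent protein kinase, changed by -0.84, Xrcc6, the Ku70 partner of Xrcc5, by -0.63, and the polymerase Polm by 0.54. In base excision repair 5 of 11 fell and 2 rose. The glycosylase Mutyh averaged 6.79 ± 1.33 CPM with FGF-2 and 30.9 ± 1.75 CPM in serum alone, a log2 fold change of -2.17, and Neil3 changed by -1.20. Lig3 and Polb, a ligase and a polymerase of that pathway, rose by 0.78 and 0.74. In nucleotide excision repair 3 of 13 fell and 5 rose, with a median of 0.12. Ercc1, of the nuclease that cuts beside the lesion, averaged 80.9 ± 13.9 CPM with FGF-2 and 26.6 ± 6.29 CPM in serum alone, a log2 fold change of 1.61, and Ercc8 changed by 0.90. The damage sensor Ddb2 and the nuclease Ercc5 changed by -1.01 and -0.95. In translesion synthesis 2 of 4 fell and 0 rose, Poli by 1.27 and Rev3l by 0.39 on the log2 scale.

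**Figure D3:**
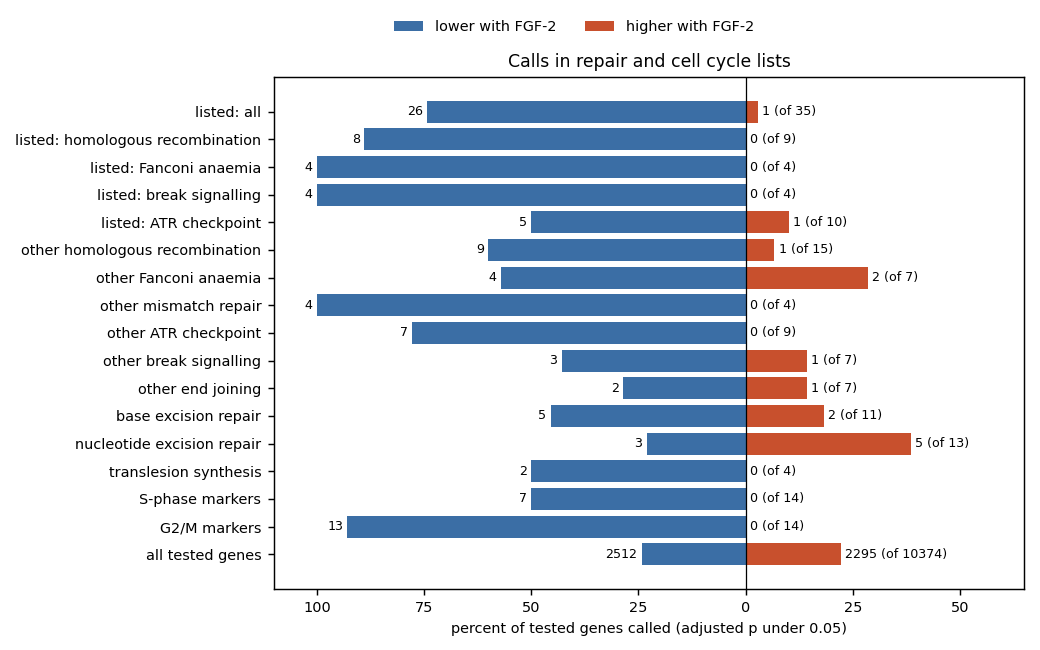
Share of tested genes called lower (left, blue) and higher (right, red) with FGF-2 in each list, with counts at the bars and the number tested in parentheses. The mismatch repair list lies wholly to the left, nucleotide excision repair has more calls to the right than to the left, and all tested genes are near even.

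Markers of the cell cycle moved in the same libraries. Of 14 tested G2/M markers 13 fell, with a median log2 fold change of -1.24, and their summed level was 377 to 447 CPM with FGF-2 and 806 to 1080 CPM in serum alone. Of 14 tested S-phase markers 7 fell, with a median of -0.44 and a summed level of 719 to 844 CPM with FGF-2 and 915 to 1248 CPM in serum alone. Pcna, the sliding clamp of replication, averaged 101 ± 16.2 CPM with FGF-2 and 95.9 ± 16.4 CPM in serum alone and did not pass. The part of cell cycle phase in the changes of the repair genes was not tested. Of 6 tested adrenocortical markers 2 fell and 1, Star, rose, and their sum was 2266 to 3751 CPM with FGF-2 and 663 to 909 CPM in serum alone. Without Star the other markers summed to 470 to 590 CPM with FGF-2 and 546 to 628 CPM in serum alone. Of other cell types, 1 of 3 tested fibroblast and capsule markers fell. Their list summed to 2214 to 3081 CPM with FGF-2 and 3023 to 3809 CPM in serum alone. Dcn and Col1a2 were listed at 0, although Col1a1 averaged 2100 CPM with FGF-2 and 2938 CPM in serum alone. Whether a count of 0 means no transcript was not tested for any marker. Of the medulla list 1 gene, Ddc, was tested and fell. That list summed to 1.5 to 2.72 CPM with FGF-2 and 5.35 to 7.02 CPM in serum alone, with Th and Dbh at 0. Of the endothelium and blood list 1 of 2 tested genes, Pecam1, fell. That list summed to 9.27 to 11.8 CPM with FGF-2 and 8.60 to 14.6 CPM in serum alone, with Tek at 0. Their part in the result was not tested.

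The start of every listed gene was marked in both conditions. A MACS2 peak lay within 1000 bases of the start in all 4 H3K27ac libraries for 38 of 38 genes, and covered the start itself in all 4 for 18. The libraries held 41975 to 50317 peaks each, and the same count was not made over all genes. By another measure, an H3K27ac region within 1 kb of a start under the gene's own symbol, 8197 of all 10374 tested genes had one. Of the 35 tested listed genes 32 did. The authors' fold enrichment over input at the start peaks of the listed genes ran between 4.34 for Rad54l in FGF-2 library 1 and 57.3 for Brca1 in serum library 1. Fancd2, Wee1 and Xrcc5, with 0 or few reads in the RNA, each had such peaks. Of the other repair genes 10 were also listed at 0 reads in all 6 libraries. The cause was not tested.

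By a false discovery rate (FDR) under 0.05 in the authors' deposited table, 0 of the 72 regions were lower and 1 was higher. Over all 40772 regions of the authors' deposited table, the share called was 1.64% lower and 8.33% higher, and over the 12484 regions within 1 kb of a start 0.681% and 2.02%. The authors' deposited table gave 15 of the 72 regions (20.8%) an unadjusted p under 0.05, against 20.5% of all its regions. For the 35 listed genes with a region within 1 kb of the start, the region nearest the start was also counted alone. Of these 35 regions 7 (20%) had such a p, against 8.45% of all regions within 1 kb of a start. The called region lies between genes at chr7:80560519-80562598 (mm10), 25.4 kb before the start of Blm. Its normalised signal was 162 and 120 with FGF-2, against 62.6 and 79.4 in serum alone, and the log2 fold in the authors' deposited table was 0.99 (FDR 0.0136). The authors' own label for all 72 regions, the called Blm region included, was Unchanged. The RNA of Blm fell.

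A limma fit on the log2 signal of the same regions, with 2 libraries per group, called 6 of the 72 lower and 3 higher. It called 3.55% of all regions lower and 12.1% higher, and 1.37% and 2.62% of those within 1 kb of a start. The lower ones were the start regions of Rad54l, Fancb, Exo1 and Rpa3 and regions 13.5 and 9.24 kb before Parp1. The higher ones were 25.4 and 47.9 kb before Blm and in an intron of Trp53bp1, 28.4 kb after its start. The signal 47.9 kb before Blm was 18.1 and 19 with FGF-2, against 0.92 and 10.0 in serum alone. The 0.92, in serum library 1, stands for 1 read. The log2 fold there was 2.61 with limma and 1.76 in the authors' deposited table (FDR 0.238). The count of lower regions was 1 without any 1 of FGF-2 library 1, FGF-2 library 2 or serum library 1, and 11 without serum library 2.

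At the starts, 35 genes had a region within 1 kb under their own symbol, and 26 of these regions covered the start. Of the 35, 29 (82.9%) had a fold below 0 in the authors' deposited table, against 43.5% of all start regions, and the median log2 fold was -0.21 against 0.04. Serum library 1 held the highest of the 4 signals in 33 of the 35, and in 54.4% of all start regions. Without serum library 1 the limma median of the 35 was -0.0016, with 18 below 0, and that of all start regions was 0.25. Without serum library 2 the median of the 35 was -0.47, with 34 below 0, and that of all start regions was -0.15. The size of the shift thus depended on which serum library was used, and the median of the 35 lay below that of all start regions in both cases.

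**Figure D4:**
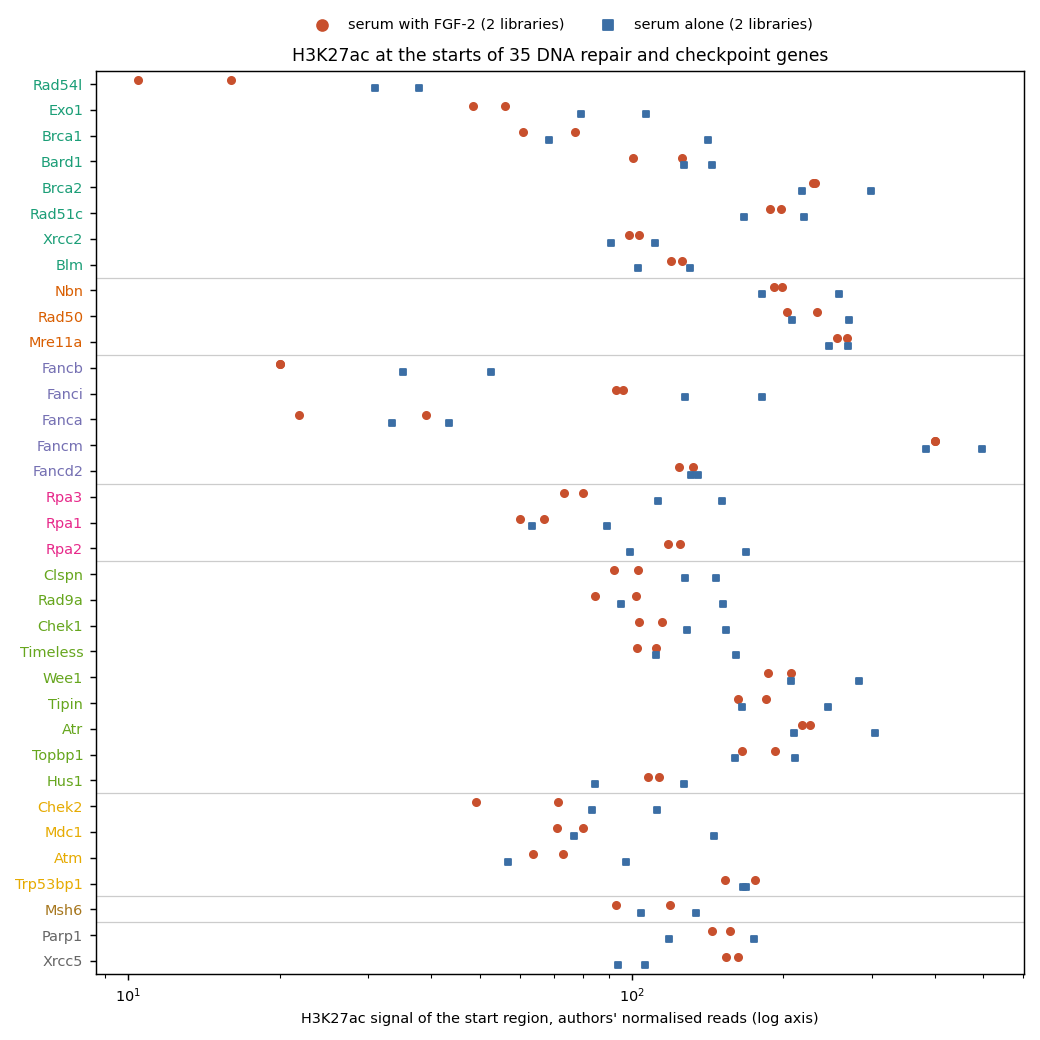
H3K27ac signal (the authors' normalised reads, log axis) of the region at the start of 35 genes, 1 point per library, with serum with FGF-2 as circles and serum alone as squares, gene names coloured by role. The circles lie left of both squares for Rad54l, Fancb, Exo1, Rpa3, Fanci, Chek2, Clspn, Chek1, Bard1 and, by a narrow margin, Wee1. They overlap the squares for most genes, and lie right of both for Xrcc5.

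The largest decreases of signal at a start were at Rad54l, Fancb, Exo1 and Rpa3. At Rad54l (chr4:116123084-116123664) the signal was 10.5 and 16 with FGF-2, against 37.8 and 30.9 in serum alone. The authors' deposited table gave it a log2 fold of -1.38 (FDR 0.115). At Fancb (chrX:164980654-164981478) it was 19.97 and 20 with FGF-2, against 52.5 and 35.1 in serum alone, with a fold of -1.13 in the authors' deposited table (FDR 0.147). At Exo1 (chr1:175880483-175881281) it was 48.5 and 56.0 with FGF-2, against 107 and 79.4 in serum alone, with a fold of -0.83 in the authors' deposited table (FDR 0.105). At Rpa3, whose RNA did not pass, it was 73.2 and 80 with FGF-2, against 151 and 113 in serum alone, with a fold of -0.78 in the authors' deposited table (FDR 0.0667). In each of the 4 the groups did not overlap. Groups that did not overlap, in either direction, were found at 11 of the 35 start regions, among them Xrcc5, where the signal was higher with FGF-2. The share over all start regions was not counted, so the 11 are not read as a trait of the list.

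The starts of Rad51c, Brca2 and Parp1 were near level although the RNA fell. At Rad51c the signal was 198 and 188 with FGF-2, against 220 and 167 in serum alone, with a log2 fold of -0.01 in the authors' deposited table. At Brca2 it was 229 and 231 with FGF-2, against 299 and 218 in serum alone, with a fold of -0.17 in the authors' deposited table. At Parp1 it was 145 and 157 with FGF-2, against 175 and 119 in serum alone, with a fold of 0.04 in the authors' deposited table. At Clspn, whose RNA also fell, the signal was lower, at 92.2 and 103 with FGF-2, against 147 and 128 in serum alone. Its fold in the authors' deposited table was -0.50 (FDR 0.291). The groups overlapped at Rad51c, Brca2 and Parp1, and did not at Clspn.

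Of the rest named above, the fold in the authors' deposited table was -0.61 at Brca1, -0.33 at Fanca, -0.27 at Rpa1, -0.18 at Atm and -0.70 at Chek2. It was -0.13 at Rad50, -0.17 at Msh6, -0.41 at Rad9a and 0.02 at Mre11a, also in the authors' deposited table, all with an FDR over 0.05. The highest was at Xrcc5, whose signal of 154 and 163 with FGF-2 stood against 93.9 and 106 in serum alone. Its fold in the authors' deposited table was 0.66 (FDR 0.0836), with 0 RNA reads. Atrip, Palb2 and Rad17 had no region under their symbol. Their starts lay in regions that the authors' deposited table ties to Atrip-trex1, Plk1 and Ak6, with folds of -0.01, -0.06 and 0.17.

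By role, the median start fold in the authors' deposited table was -0.215 for 8 homologous recombination genes, -0.33 for 5 Fanconi genes and -0.32 for 9 ATR checkpoint genes. It was -0.37 for the 4 genes of break signalling, -0.27 for RPA and -0.13 for the MRN complex. In the authors' deposited table the 2 genes of end joining and PARP, Parp1 and Xrcc5, had a median of 0.35. The RNA medians of those roles other than end joining and PARP lay between -1.25 for homologous recombination and -0.24 for the MRN complex. Across the 32 genes with both values, Pearson's r between RNA and start fold was 0.34 and Spearman's rho 0.27. Across all 8197 genes with both they were 0.43 and 0.35. These are descriptions across genes, which share the libraries and are not independent replicates.

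**Figure D5:**
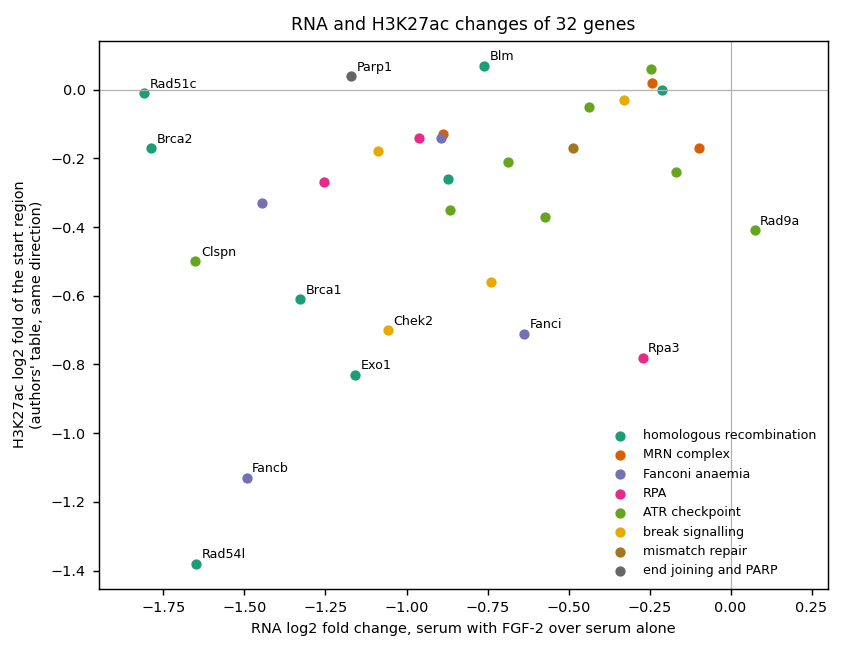
RNA log2 fold change (horizontal) against the authors' H3K27ac log2 fold at the start region (vertical) for 32 genes, coloured by role, both serum with FGF-2 over serum alone. Rad54l and Fancb are low on both axes, whereas Rad51c, Brca2 and Parp1 lie far left with a fold near 0 on the vertical axis.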

How the data were processed

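The RNA files deposited by the authors hold raw counts of reads for each gene symbol. The submitters' processing notes name STAR 2.5.2a, HTSeq 0.10.0, SAMtools 1.1, bedtools 2.15.0, MACS2 2.2.6, DiffBind, ChIPseeker and DESeq2, with the build mm10. Which annotation and strand setting the counting used is not stated in the sources at hand. Unassigned and ambiguous reads, 37.0% to 43.2% of a library, were left out. H3K27ac peaks were deposited per library, with a fold (a ratio over input) and −log10 q per peak, per the file headers. Of the deposited table of regions, the log2 folds, p-values and FDRs of the authors' comparison were used, with the normalised signal of each library. Divided by 1 step per library, 100% of these signals below a set size came out as whole reads, within 0.02 reads plus an allowance for rounding. Larger signals were left out of that check.

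RNA was tested with the robust quasi-likelihood fit of edgeR 4.0.16 (R 4.3.3) after TMM scaling and filterByExpr, with adjusted p under 0.05 over all tested genes. SEs are from that fit. H3K27ac calls apply a threshold of 0.05 to the authors' FDR, with limma 3.58.1 on the log2 signal beside them. The edgeR test and the limma fit were run on simulated data first. The authors' comparison was not, so the share of true changes that its FDR misses is not known. Replicate libraries differed by more than sampling noise (chi-square per degree of freedom 9.06 to 24.0). DESeq2 1.42.0, limma-voom, other scalings, filters and thresholds, a replicate block and left-out libraries were alternatives. The test on recovered reads and the crossed block were added after the data were seen.

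The 38 genes and all other lists were chosen with earlier results of these data known. Values in every library were given for genes called with an absolute log2 fold change of at least 1, those called higher, the largest change in each role, and the 4 uncalled genes of highest mean CPM. Up to 2 genes per direction were named for each other list. Some repair genes are not reported here and were left out of these lists. Xrcc2, Pcna, Trex1, the Xrcc5 region and the uncalled start regions of Rpa3 were picked with their values known. Promoters are those of the gene of largest change in each of 6 roles. Peaks were matched to starts within 1000 bases. Sequences are RefSeq's, assembly GRCm38.p6. Figures used Python 3.11.15 with matplotlib 3.10.9.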

Additional observations from a re-analysis of the deposited data

How the results depend on the processing

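The count of listed genes called lower in RNA was 26, and under the other tools, scalings, filters and thresholds it lay between 22 (at least 1.5-fold) and 31 (library totals only). It was 23 to 26 when 1 library was left out. Of the 26 genes, 23 kept their call and direction under every other tool, scaling, filter, block and left-out library run for them, and the exceptions were Chek1, Msh6 and Trp53bp1. Trp53bp1 also lost its call with DESeq2 (-0.31, DESeq2 adjusted p = 0.0663) and with no low-count filter (-0.31, edgeR adjusted p = 0.0572). The count called higher was 0 in place of 1 with library totals only and at 1.5-fold. Rad9a (0.07) was -0.27 with library totals, -0.066 with upper-quartile scaling and -0.027 to 0.17 with 1 library left out. Rad17 (0.23) was -0.11 with library totals. Same-numbered RNA libraries deviated together for number 3 but not for each number (r = -0.13, 0.05 and 0.39), FGF-2 libraries 1 and 2 correlated best with another number, and both libraries 3 stood at -17.3 and -17.4 on the second component, against 4.35 to 12.7 for the others. With a replicate block 26 genes were lower and 1 higher. Of the 72 regions, 0 were lower and 1 higher by an FDR under 0.05 in the authors' table. The count higher was 0 at an FDR of 0.01 and 0 within 3 kb of a start. The counts lower and higher were 6 and 3 with limma, 1 and 3 with limma and a replicate block, and 5 and 3 with edgeR on recovered reads. With 1 library left out of the limma fit they were 1 to 11 lower and 0 to 5 higher. In that fit the lone library left in a group is assumed to vary like the other group. Same-numbered H3K27ac libraries deviated in opposite ways (r = -0.19), and with the crossed replicate block the counts were 8 and 6. Genes with a peak at the start in all 4 libraries numbered 38, and 18 where the peak had to cover the start. The cause of these shifts was not tested.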
